A study of Mus musculus with 10 samples.

Results

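The genes described here encode 10 proteins of the interstitial matrix that are not collagens: the glycoproteins fibronectin, thrombospondin-1, tenascin-C, periostin and SPARC, the proteoglycans versican, biglycan, decorin and lumican, and the microfibril protein fibrillin-1. They were chosen by gene symbol as matrix proteins deposited in fibrosis, and they are 10 of the 54532 genes in the count table. All 10 passed the filter on low counts, both over all 10 libraries, where 16505 genes were tested, and over the 8 libraries defined below, where 16550 were tested. RNA was sequenced from whole kidneys with unilateral ureteral obstruction (UUO), in which the left ureter is tied and urine cannot drain. Both groups were wild-type C57BL/6 male mice operated on at 8 weeks of age and killed 14 days later. One group received PBS (n = 5, the control) and the other received dimethyl malonate (DMM, n = 5), an inhibitor of the mitochondrial enzyme succinate dehydrogenase, injected into the peritoneum at 40 mg/kg every other day. The comparison asked how DMM changed gene expression in the obstructed kidney, each library being 1 mouse. Kidneys without obstruction were not analysed here, so levels can be read only against obstructed kidneys given PBS.

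Interstitial fibrosis is the build-up of matrix between the tubules, and it follows ureteral obstruction in rodents. Collagen fibers give this matrix its bulk, while adhesive glycoproteins link fibers to integrins on cells, matricellular proteins alter how cells respond to their surroundings, and proteoglycans carry sugar chains that bind water, growth factors and collagen. Fibroblasts and pericytes are major sources of these proteins, and transforming growth factor beta is a known inducer of many of them.

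Total counts were 18078777, 16457495, 17825223, 18068465 and 16508788 in PBS1 to PBS5 and 15797882, 15722527, 17806034, 19475833 and 16794390 in DMM1 to DMM5. The libraries did not stand equally within their groups, which bears on each value that follows. The group means deposited by the authors could be rebuilt exactly from 4 libraries per group, with PBS3 and DMM1 given a weight of 0; the reason was not given in the sources used here. For 10 interferon-induced genes used as a check, the mean log2 level relative to the PBS mean was −0.08 in DMM1, within the PBS range of −0.39 to 0.29, and between −3.50 and −2.98 in DMM2 to DMM5. DMM1 carried the DMM label, and its interferon genes lay at PBS levels. DMM4 stood apart in another way. Its median Spearman correlation with the other libraries was 0.928, against 0.966 to 0.985 for the rest, and 20029 genes had a count in it, against 22898 to 24083. Its difference from the other libraries followed gene length (rho = 0.424 across genes, which are not independent replicates, against −0.221 to −0.0887 in the rest), with a median log2 difference of −0.64 for 3120 genes under 2 kb and 0.64 for 2509 genes over 8 kb. The mitochondrial genome took 5.62% of counts in DMM4, the highest share of the 10 libraries. It took 3.79%, 4.025% and 4.39% in DMM2, DMM3 and DMM5, also above every PBS library (1.97% to 3.66%). DMM1, at 2.30%, lay within the PBS range. Results are therefore given over all 10 libraries, over the 8 libraries without PBS3 and DMM1, and over those 8 without DMM4. The last set was put forward after DMM4 was seen to stand apart.

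Matrix transcripts were lower in 3 of the 5 DMM kidneys than the PBS mean for every one of the 10 genes (DMM2, DMM3 and DMM5), whereas DMM1 lay above the PBS mean for 9 genes and DMM4 for 5. PBS libraries also lay low, PBS3 below the PBS mean for all 10 genes and PBS1 for 9, and the median log2 level relative to the PBS mean was −0.59 in PBS3 beside −0.56 in DMM2, −1.20 in DMM3 and −0.92 in DMM5. Over all 10 libraries the edgeR quasi-likelihood F test called none of the 10 genes at an adjusted p under 0.05 with a fold change above 1.5, as it called 0.0% of all genes lower, and none of the 10 had an unadjusted p under 0.05; at that unadjusted threshold with the fold, 4.11% of all genes were lower. DESeq2, run without the filter on low counts, also called none over these libraries, against 0.117% of its 30751 genes called lower. Lum alone was lower there at an unadjusted p under 0.05 and the fold, 1 of 10 against 2.99% of these genes. Its shares rest on more genes than those of edgeR and are not directly comparable with them. Limma voom with sample weights called 4 of 10, against 6.02% of all genes. Without DMM1 edgeR called 1 of 10 over the rest, Postn, against 2.6% of all genes called lower.

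Over the 8 libraries 3 of 10 were called lower (Postn, Bgn and Lum) and none higher, against 3.56% of all genes called lower and 2.73% called higher. The libraries left out of this set, PBS3 and DMM1, held the lowest PBS sum and the highest DMM sum of the 10 genes (4825 and 8078 CPM). Leaving them out therefore in itself widens the difference between the groups in this sum. At an unadjusted p under 0.05 with the fold, 4 of 10 were lower over the 8, against 7.24% of all genes. The median log2 fold change of the 10 genes was −0.39 over all 10 libraries and −0.68 over the 8, beside 0.02 for all tested genes in each set, and the fold change was below 0 for 8 and 10 of the 10 genes. With DMM4 also left out (n = 4 and 3), 8 of 10 were called lower, against 7.61% of all genes. Leaving DMM4 alone out of the 10 libraries called 0 of the 10, as it called 0 of all genes by edgeR. None of the 10 had an unadjusted p under 0.05 in that fit. With another of the 8 left out, 3 were called without DMM2 (3.38% of all genes) and 2 without PBS1 (2.19%). Only 1 was called without DMM3 (1.83%), DMM5 (1.79%), PBS2 (2.06%), PBS4 (1.89%) or PBS5 (1.63%). DESeq2 called 4 of 10 lower over the 8, Postn, Sparc, Bgn and Lum, against 3.02% of its 30116 genes, again without the filter on low counts. With the replicate number as a block (replicate block), edgeR called none of the 10 and 0.0% of all genes lower, with 4 of 10 lower at an unadjusted p under 0.05 and the fold, against 6.17% of all genes; the numbers are not known to pair the mice. Fewer cells of a type and less RNA per cell cannot be told apart in whole-kidney RNA.

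The summed level of the 10 genes was 6039, 7369, 4825, 8891 and 7186 CPM (the unit of level used here, a count relative to the library's total, scaled by the trimmed mean of M-values, TMM) in PBS1 to PBS5 and 8078, 5200.3, 3638, 5783 and 4091 CPM in DMM1 to DMM5. PBS3 held the lowest sum of its group and lay inside the DMM range, while DMM1 held the highest sum of its group and lay above 4 of the 5 PBS libraries, so the groups overlapped.

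**Figure D1:**
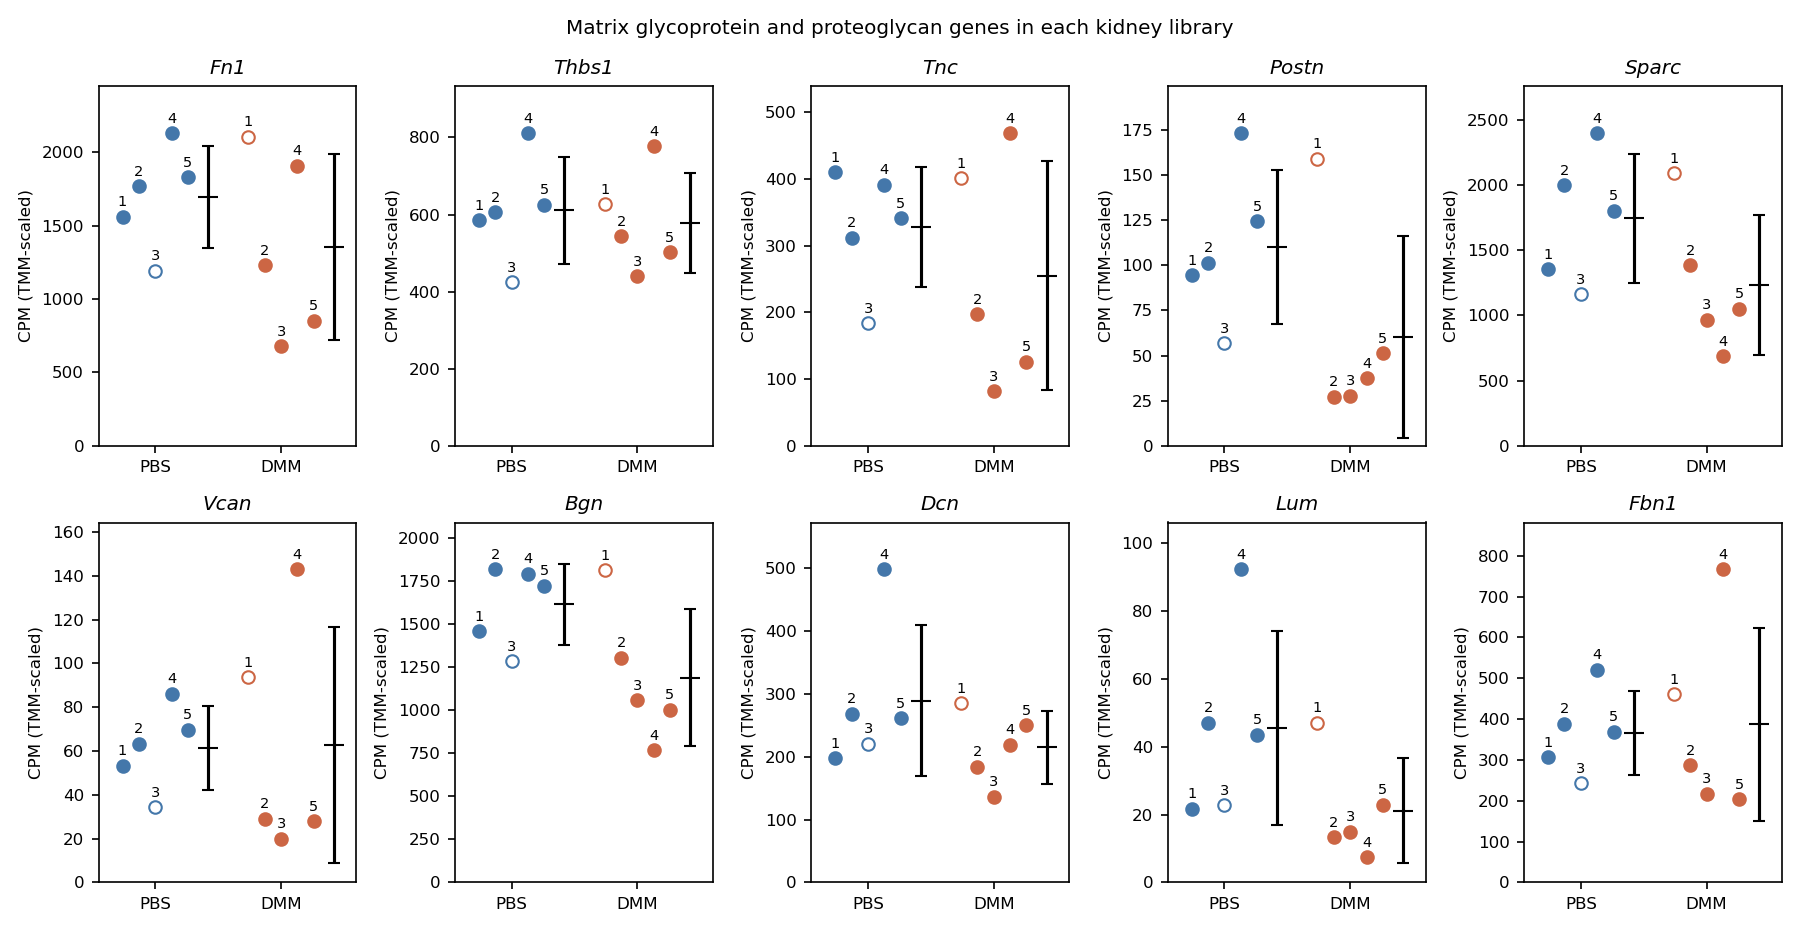
Level of each gene in every library in TMM-scaled CPM (vertical axis, from 0), with PBS libraries in blue, DMM libraries in orange, the replicate number above each point, and the group mean ± SD (n = 5) as the black bar; open points are PBS3 and DMM1. Postn in DMM2 to DMM5 lay between 27.2 and 51.4 CPM, under every PBS library, while DMM1 lay at 159 CPM; DMM4 was the highest library for Tnc, Vcan and Fbn1.

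Fibronectin, encoded by Fn1 (ENSMUSG00000026193, chr1:71585520-71653200, minus strand of mm10), is the adhesive glycoprotein on which cells assemble other matrix fibers. Its level was 1560.3, 1769, 1194, 2129.9 and 1828 CPM in PBS1 to PBS5 and 2105, 1231, 677, 1906 and 853 CPM in DMM1 to DMM5. DMM3 and DMM5 lay below every PBS library, DMM2 lay just above PBS3, and DMM1 and DMM4 lay among the highest PBS libraries. The mean was 1696 ± 347 CPM with PBS and 1354 ± 631 CPM with DMM (SD, n = 5). The log2 fold change was −0.32 ± 0.30 (SE) over all 10 libraries (edgeR, adjusted p = 0.676) and −0.64 ± 0.30 over the 8 (edgeR, adjusted p = 0.253), so it was not called in either. Leaving DMM4 out of the 8 gave −0.99 ± 0.19 (edgeR, adjusted p = 0.00547), past the threshold; the adjusted p ran from 0.00547 to 0.479 over the 13 alternatives tried on the 8.

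Among the 4 matricellular genes, Postn had the lowest fitted fold change in both library sets, though Tnc was lower relative to its PBS mean in DMM3 and DMM5. Postn (ENSMUSG00000027750, chr3:54361109-54391037, plus strand) encodes periostin, a secreted protein that binds integrins and collagen and is little made in the healthy adult kidney. Its level was 94.4, 102, 56.9, 173 and 124 CPM in PBS1 to PBS5 and 159, 27.2, 27.7, 37.5 and 51.4 CPM in DMM1 to DMM5. DMM2 to DMM5 lay below all 5 PBS libraries, and DMM1 lay above 4 of them. Mean levels were 123 ± 35.6 CPM with PBS and 35.9 ± 11.4 CPM with DMM over the 8 libraries (SD, n = 4), and 110.1 ± 42.8 and 60.5 ± 55.9 CPM over all 10 (SD, n = 5). The 8 libraries leave out PBS3 and DMM1, the lowest PBS and the highest DMM library for Postn. Over these 8 Postn was called lower, with a log2 fold change of −1.78 ± 0.26 (SE, edgeR, adjusted p = 0.00683). It was not called over all 10, with −0.86 ± 0.50 (edgeR, adjusted p = 0.532). Leaving out each of the 8 in turn gave −2.01 to −1.58 with edgeR adjusted p-values of 0.00204 to 0.0272, all past the threshold. With the replicate block the call over the 8 was lost, at −1.80 ± 0.24 (edgeR, adjusted p = 0.0813), in a range of 1.71e-08 to 0.0813 over the 13 alternatives tried on the 8. Leaving DMM1 alone out of the 10 gave −1.62 ± 0.31 (edgeR, adjusted p = 0.0213), also past it, in a range of 0.00683 to 0.773 over the 20 alternatives tried on the 10. In the exact permutation test of mean log2 CPM (two-sided), p was 0.0794 over all 10 libraries, where 252 relabelings allow no p under 0.00794, and 0.0286 over the 8, which is the smallest p that 70 relabelings allow.

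Sparc (ENSMUSG00000018593, chr11:55394500-55423183, minus strand) encodes a collagen-binding glycoprotein also known as osteonectin. Its level was 1353, 1997, 1161, 2397 and 1802 CPM in PBS1 to PBS5 and 2087, 1383, 966, 689 and 1050.0 CPM in DMM1 to DMM5. DMM3, DMM4 and DMM5 lay below every PBS library, DMM2 lay above PBS1 and PBS3, and DMM1 lay above all PBS libraries but PBS4. The log2 fold change was −0.50 ± 0.30 (SE) over all 10 libraries (edgeR, adjusted p = 0.536) and −0.89 ± 0.24 over the 8 (edgeR, adjusted p = 0.0622). Sparc passed the threshold when DMM2 (−1.07, edgeR adjusted p = 0.0419) or DMM4 (−0.74, edgeR adjusted p = 0.0203) was left out of the 8, in a range of 0.00844 to 0.280 over the 13 alternatives tried on the 8. Its exact permutation p was 0.135 over all 10 and 0.0571 over the 8.

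Tnc (ENSMUSG00000028364, chr4:63959785-64047015, minus strand) encodes tenascin-C, a matrix protein made in wounds and inflamed tissue. Its level was 410.0, 312, 184, 391 and 341 CPM in PBS1 to PBS5 and 401, 197, 81.6, 469 and 126 CPM in DMM1 to DMM5. DMM3 and DMM5 lay below every PBS library and DMM2 lay just above PBS3, while DMM4 was above them all. The spread within the DMM group was wide, the highest library being 5.75 times the lowest. The log2 fold change was −0.36 ± 0.44 (SE) over all 10 libraries (edgeR, adjusted p = 0.746), −0.74 ± 0.46 over the 8 (edgeR, adjusted p = 0.406) and −1.43 ± 0.25 with DMM4 left out of the 8 (edgeR, adjusted p = 0.00367); the last was past the threshold, in a range of 0.00367 to 0.590 over the 13 alternatives tried on the 8.

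Thbs1 (ENSMUSG00000040152, chr2:118111876-118127133, plus strand) encodes thrombospondin-1, which binds CD36 and CD47 on cells and can activate latent transforming growth factor beta. Its level was 585, 606, 425, 812 and 625 CPM in PBS1 to PBS5 and 627, 544, 440.1, 778 and 503 CPM in DMM1 to DMM5. No DMM library lay below the lowest PBS library or above the highest. Thbs1 had a log2 fold change of −0.08 ± 0.19 (SE) over all 10 libraries (edgeR, adjusted p = 0.880) and −0.22 ± 0.20 over the 8 (edgeR, adjusted p = 0.571), within its standard error over all 10, and its sign turned when PBS4 (0.05) or DMM3 (0.01) was left out of the 10. With DMM4 left out of the 8 it was −0.41 ± 0.12 (edgeR, adjusted p = 0.0385), under the 1.5-fold limit, in a range of 0.0385 to 0.852 over the 13 alternatives tried on the 8.

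Versican, encoded by Vcan (ENSMUSG00000021614, chr13:89655312-89742509, minus strand), is a large chondroitin sulfate proteoglycan that binds hyaluronan. Its level was 53.2, 63.4, 34.4, 86.2 and 69.8 CPM in PBS1 to PBS5 and 93.8, 29.2, 19.9, 143 and 28.1 CPM in DMM1 to DMM5. DMM2, DMM3 and DMM5 lay below every PBS library, whereas DMM1 and DMM4 lay above every PBS library, so no single direction described the DMM group. Vcan had the widest spread of the 10 genes in the DMM group, 7.18-fold from lowest to highest, and the group means were 61.4 ± 19.3 CPM with PBS and 62.8 ± 53.7 CPM with DMM (SD, n = 5). The log2 fold change was 0.03 ± 0.51 (SE) over all 10 libraries (edgeR, adjusted p = 0.984) and −0.31 ± 0.58 over the 8 (edgeR, adjusted p = 0.799). Leaving DMM4 out of the 8 gave −1.41 ± 0.18 (edgeR, adjusted p = 0.000975), the smallest adjusted p of the 10 genes in that set, in a range of 0.000975 to 0.977 over the 12 alternatives that gave a value on the 8. The value over all 10 libraries turned negative without PBS1 (−0.02), PBS3 (−0.12), DMM1 (−0.16) or DMM4 (−0.52) and with scaling to library size alone (−0.11). Counts of up to 2.09% of the Vcan count fell on Gm4117, a gene on the opposite strand within it; whether the counting used strand was not given in the sources used here.

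Biglycan, decorin and lumican are small leucine-rich proteoglycans, which bind collagen fibrils and influence their spacing and thickness. Bgn (ENSMUSG00000031375, chrX:73483602-73495933, plus strand) was at 1456, 1816, 1283, 1791 and 1721 CPM in PBS1 to PBS5 and 1813, 1304, 1056, 768 and 1003 CPM in DMM1 to DMM5. It varied least of the 10 genes among PBS kidneys, with a coefficient of variation of 14.5%. DMM3, DMM4 and DMM5 lay below every PBS library, DMM2 lay above PBS3 alone, and DMM1 lay near the highest PBS library. Over the 8 libraries, which leave out its lowest PBS and its highest DMM library, the groups did not overlap. The means there were 1696 ± 165 CPM with PBS and 1033 ± 219.8 CPM with DMM (SD, n = 4). Bgn was called lower over these 8, with a log2 fold change of −0.72 ± 0.17 (SE, edgeR, adjusted p = 0.0423). The value over all 10 was −0.44 ± 0.22 (edgeR, adjusted p = 0.490). The call over the 8 was lost when DMM3, DMM5, PBS1, PBS2, PBS4 or PBS5 was left out (edgeR adjusted p of 0.109, 0.120, 0.0705, 0.123, 0.127 and 0.125), with log2 fold changes of −0.85 to −0.60 in all 8 fits that left out 1 library and adjusted p-values from 0.00310 to 0.265 over the 13 alternatives tried. The exact permutation p was 0.0873 over all 10 libraries and 0.0286 over the 8, the smallest possible there.

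Lum (ENSMUSG00000036446, chr10:97565128-97572703, plus strand), which encodes lumican, had 124 to 1735 counts per library. Its level was 21.7, 47.1, 22.8, 92.3 and 43.5 CPM in PBS1 to PBS5 and 47.2, 13.4, 14.9, 7.49 and 22.9 CPM in DMM1 to DMM5. DMM2, DMM3 and DMM4 lay below every PBS library, DMM5 lay between PBS3 and PBS5, and DMM1 lay above all PBS libraries but PBS4. PBS kidneys also varied, with a 4.25-fold range. Lum fell over the 8 libraries, with a log2 fold change of −1.80 ± 0.45 (SE; edgeR, adjusted p = 0.0477) and had a log2 fold change of −1.10 ± 0.51 over all 10 (edgeR, adjusted p = 0.468). The call stood close to the threshold: it held with DMM4 (−1.58, edgeR adjusted p = 0.0241) or PBS1 (−2.06, edgeR adjusted p = 0.0368) left out of the 8, and was lost without DMM2, DMM3, DMM5, PBS2, PBS4 or PBS5 (edgeR adjusted p of 0.101, 0.122, 0.0639, 0.103, 0.128 and 0.109), with log2 fold changes of −2.10 to −1.35 in these 8 fits and adjusted p-values from 0.000889 to 0.206 over the 13 alternatives tried. Its exact permutation p was 0.111 over all 10 and 0.0571 over the 8.

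Dcn (ENSMUSG00000019929, chr10:97479609-97518143, plus strand) encodes decorin, which also binds transforming growth factor beta, and lies beside Lum on chromosome 10. Its level was 197, 268, 221, 498 and 261 CPM in PBS1 to PBS5 and 285, 184, 136, 219 and 249.9 CPM in DMM1 to DMM5. PBS4 stood far above the rest, DMM2 and DMM3 lay below every PBS library, and DMM1, DMM4 and DMM5 lay within the PBS range. The log2 fold change was −0.43 ± 0.27 (SE) over all 10 libraries (edgeR, adjusted p = 0.549), −0.63 ± 0.30 over the 8 (edgeR, adjusted p = 0.258) and −0.69 ± 0.31 without DMM4 (edgeR, adjusted p = 0.133), so Dcn was not called in any of the 3 sets. Leaving PBS4 out of the 8 gave −0.30 (edgeR, adjusted p = 0.587), in a range of 0.133 to 0.587 over the 13 alternatives tried on the 8.

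Fibrillin-1, encoded by Fbn1 (ENSMUSG00000027204, chr2:125300594-125507993, minus strand), forms the microfibrils that scaffold elastic fibers and hold latent transforming growth factor beta. Its level was 307, 389, 244, 521 and 369 CPM in PBS1 to PBS5 and 460.4, 288, 217, 767 and 204 CPM in DMM1 to DMM5. DMM3 and DMM5 lay below every PBS library, DMM2 lay between PBS3 and PBS1, and DMM4 lay above them all. The log2 fold change was 0.08 ± 0.36 (SE) over all 10 libraries (edgeR, adjusted p = 0.937) and −0.11 ± 0.41 over the 8 (edgeR, adjusted p = 0.910), each within its standard error. Without DMM4 the 8 gave −0.75 ± 0.18 (edgeR, adjusted p = 0.0149), past the threshold, while the sign turned when PBS4 (0.05), DMM3 (0.08) or DMM5 (0.09) was left out of the 8; the adjusted p ran from 0.0149 to 0.990 over the 13 alternatives tried on the 8. The value over all 10 libraries turned negative without PBS3 (−0.04) or DMM4 (−0.32) and with scaling to library size alone (−0.04).

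**Figure D2:**
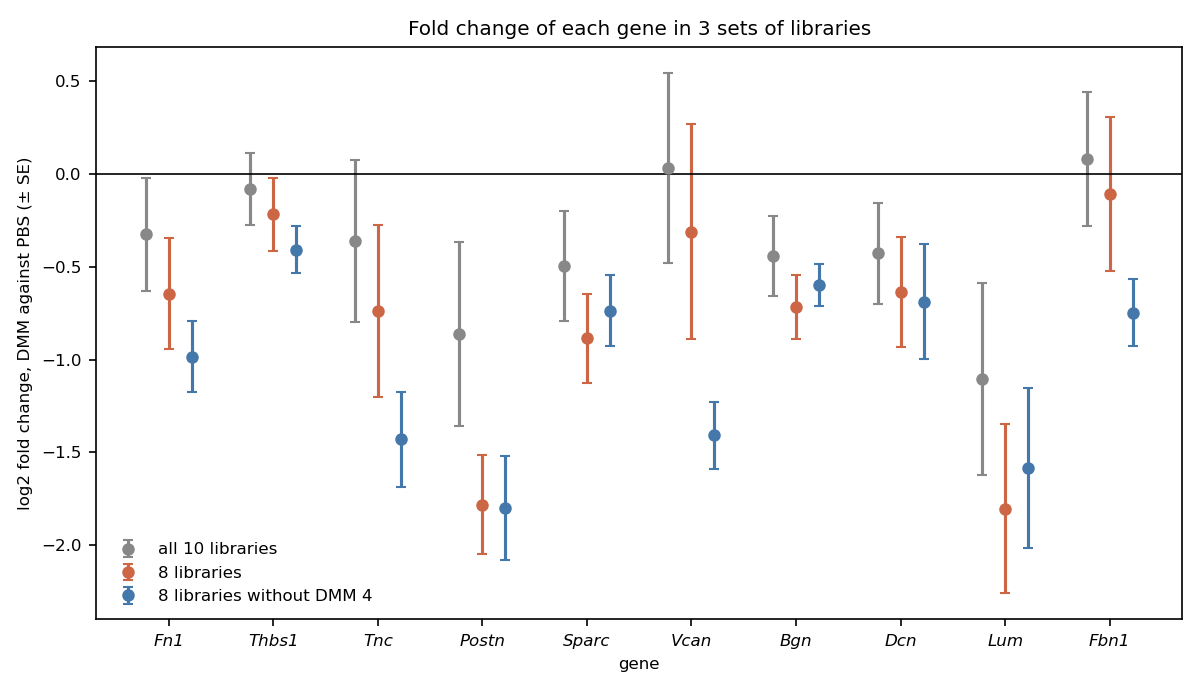
Log2 fold change of each gene, DMM against PBS (vertical axis), with the standard error as bars, from edgeR over all 10 libraries (grey, n = 5 and 5), the 8 libraries (orange, n = 4 and 4) and the 8 without DMM4 (blue, n = 4 and 3). Postn and Lum lay near −1.8 over the 8, and Vcan moved from −0.31 to −1.41 when DMM4 was left out.

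The choice of genes did not use gene length, and a relation of the 10 levels in DMM4 to length was not tested. Vcan, Fbn1 and Fn1, the longest of the 10 at 14462, 12128 and 11685 bases of deposited gene length, were above the PBS mean in that library. Lum and Sparc, the shortest at 2448 and 3788 bases, were below it. Dcn (5838 bases) was also below it. Lengths between these and the longest did not sort in the same way, since Thbs1 (6073 bases) and Tnc (7772 bases) were above the PBS mean in DMM4 while Bgn (6099 bases) and Postn (8702 bases) were below. In DMM4 the log2 level relative to the PBS mean was −2.60 for Lum and 1.22 for Vcan. A correction of each library for gene length, chosen after seeing the data, called 5 of 10 lower over the 8 libraries (Fn1, Postn, Sparc, Bgn and Lum), against 4.11% of all genes, and moved Vcan from −0.31 to −0.76, not called. The limma voom test with sample weights, over all 10 libraries, gave DMM4 a weight of 0.0505 and DMM1 a weight of 0.478 and called Fn1, Tnc, Postn and Vcan lower, 4 of 10, against 6.02% of all genes.

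**Figure D3:**
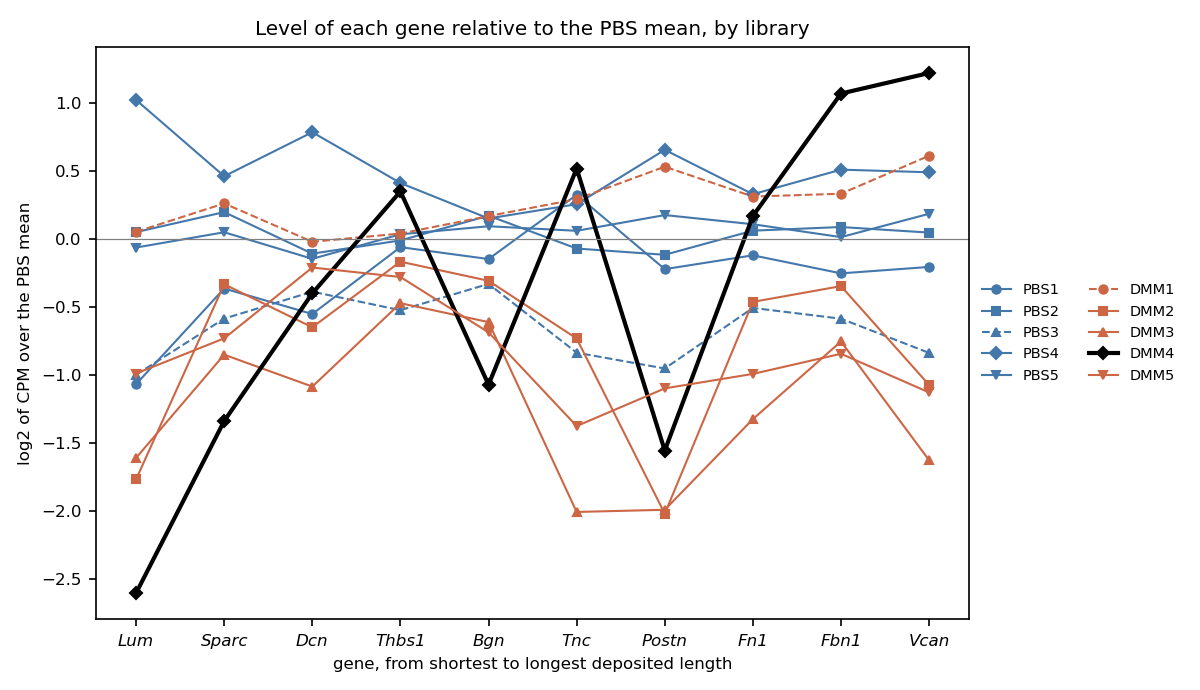
Log2 of each library's CPM over the PBS mean (vertical axis) for the 10 genes, ordered from the shortest to the longest deposited length (horizontal axis); PBS libraries in blue, DMM libraries in orange, PBS3 and DMM1 dashed, DMM4 in black. DMM4 ran from −2.60 for Lum to 1.22 for Vcan, while DMM2, DMM3 and DMM5 lay below 0 for all 10 genes.

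No gene of the 10 had all 5 DMM libraries below all 5 PBS libraries, as 1.16% of all genes did. Over the 8 libraries 2 of 10 had no overlap in this direction, Postn and Bgn, against 10.7% of all genes. For both, the libraries left out were the lowest PBS and the highest DMM library. For the genes whose exact permutation test is not given above (Fn1, Thbs1, Tnc, Vcan, Dcn and Fbn1), p was 0.254 to 0.881 over all 10 libraries and 0.114 to 0.571 over the 8.

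Per kilobase of gene length, Sparc was the most abundant of the 10 in PBS kidneys, at 460.0 ± 131 CPM per kb (SD, n = 5), followed by Bgn at 265 ± 38.3 and Fn1 at 145 ± 29.7 CPM per kb. The ranges of these 3 did not overlap. From there neighbours overlapped: Thbs1 at 101 ± 22.7, Dcn at 49.5 ± 20.6, Tnc at 42.1 ± 11.5, Fbn1 at 30.2 ± 8.54, Lum at 18.6 ± 11.7 and Postn at 12.7 ± 4.92 CPM per kb. Vcan was last at 4.24 ± 1.33 CPM per kb, with its range under that of Postn. The order of means was the same in the DMM group, from 326 ± 142 CPM per kb for Sparc to 4.34 ± 3.72 for Vcan, and there each neighbouring pair overlapped except Thbs1 and Dcn.

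Correlation between the 10 genes from kidney to kidney ranged from close to 0 to close to 1. Across the 10 libraries, pooled over both groups, all 45 pairs had a Pearson r above 0 on log2 CPM, with a median of 0.643, and 19 pairs had an adjusted p under 0.05 (permutation test with 100000 resamples, adjusted over the 45 pairs). Of the 45 pairs, 44 had an r above 0 over the 8 libraries, with a median of 0.605, and 15 had an adjusted p under 0.05 (exact permutation test). The highest r of the 45 was that of Sparc and Bgn, which lie on different chromosomes. They had r = 0.971 with a permutation p of 1e-05 and an adjusted p of 0.000450, rho = 0.927 with a permutation p of 0.000270 and an adjusted p of 0.00210, this p of r being the smallest that the resamples allow, and without the 2 libraries farthest from the median of Sparc r was 0.966. Vcan and Fbn1, the longest of the 10, had r = 0.950 with a permutation p of 3e-05 and an adjusted p of 0.000600, rho = 0.952 with a permutation p of 0.000110 and an adjusted p of 0.00210, and r was 0.930 without the 2 farthest.

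The lowest r of the 45 over the 10 libraries was that of Bgn and Fbn1. They had r = 0.0791 with a permutation p of 0.827 and an adjusted p of 0.827, rho = 0.406 with a permutation p of 0.246 and an adjusted p of 0.310, but r was 0.936 once DMM4 and DMM5, the farthest from the median of Bgn, were left out. This pair had, over the 8 libraries, r = −0.0116 with an exact permutation p of 0.978 and an adjusted p of 0.978, and rho = 0.309 with an exact permutation p of 0.462, the 1 pair with r below 0 there. Without DMM4 alone, a choice made after seeing the data, all 45 pairs lay between 0.641 and 0.985, with a median r of 0.856. With values centred on each group's mean, the median r was 0.587, a relation among kidneys of the same group.

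Outside the 10, the genes whose log2 CPM was most alike to their mean over the 10 libraries were Col1a1 (r = 0.988), Adamts2 (r = 0.987), Ms4a6d (r = 0.981), Mmp14 (r = 0.979) and Unc5a (r = 0.978), with rho from 0.964 for Col1a1 up to 1 for Mmp14. Without PBS4 and DMM3, the libraries farthest from the median, r was 0.959 to 0.985. These are the highest of all tested genes by construction and are given as a description. Col1a1 encodes a chain of collagen I, Adamts2 an enzyme that trims procollagen, and Mmp14 a membrane-bound protease. Of these 5, Adamts2 and Mmp14 were called lower over the 8 libraries, against 3.56% of all genes (log2 fold changes of −0.84 and −0.81, edgeR adjusted p of 0.0343 and 0.0496). The 5 were picked for following the mean of the 10, so these calls are not separate from it. With 1 of the 8 left out in turn, Mmp14 was called only without DMM4.

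The 13 markers of fibroblasts, pericytes and smooth muscle, led per length by Col1a1, summed to 6671, 9780.4, 5267, 14155 and 9243 CPM in PBS1 to PBS5 and 11338, 5399, 3859.8, 7440.2 and 4296 CPM in DMM1 to DMM5. PBS4 and DMM1 were the highest and DMM3 and DMM5 the lowest, as they were for the summed level of the 10 matrix genes. Over the 8 libraries 2 of 13 were called lower and none higher, with a median log2 fold change of −0.45. Col1a1, Col1a2, Col3a1 and Cspg4 of these are also counted in lists below. For each marker list, the share of all genes over the 8 was 3.56% called lower and 2.73% called higher. With DMM4 also left out it was 7.61% called lower, and 1129 of 16828 genes were called higher. The 10 proximal tubule markers, led per length by Kap, summed to 3559.7, 3537, 9383, 1272 and 2555 CPM in PBS1 to PBS5 and 2654, 7315, 6075, 5148 and 8971 CPM in DMM1 to DMM5. PBS4, the library highest for the 10 matrix genes, had the least, and PBS3, the lowest of its group for them, had the most. Over the 8 libraries 3 of 10 were called higher and none lower, with a median of 1.64.

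The 8 markers of the loop, distal tubule and collecting duct, led by Umod, summed to 3156, 2636, 4378, 1997 and 1747 CPM in PBS1 to PBS5 and 2739.7, 4237, 4919, 1953 and 5266 CPM in DMM1 to DMM5; 3 of 8 were called higher over the 8 libraries and none lower. For 10 macrophage and monocyte markers, led by Lyz2, the sum was 2363, 2427, 1881, 2157 and 2568 CPM in PBS1 to PBS5 and 2222, 1592, 1261, 1045 and 1285 CPM in DMM1 to DMM5. DMM2 to DMM5 lay below every PBS library and DMM1 did not; 2 of 10 were called lower over the 8. The 8 T and NK cell markers, led by Trac, summed to 48.7, 51.5, 50.1, 41.3 and 72.2 CPM in PBS1 to PBS5 and 45.2, 38.1, 14.4, 20.5 and 22.0 CPM in DMM1 to DMM5, with 1 of 8 called lower. Of the other lists, edgeR called no gene over the 8 libraries, with 1 mesothelial gene lower at an unadjusted p under 0.05 and the fold and 1 called lower by DESeq2: injured tubule (led by Clu), podocyte (Podxl), endothelium (Plvap), B cell (Cd79b), neutrophil (S100a9), platelet (Ppbp), adipocyte (Fabp4), mesothelium (Msln) and urothelium (Upk1a). No skeletal muscle marker passed the filter on low counts; of these Ckm and Myh4, and of the mesothelial markers Lrrn4, had at most 3 counts in any library. Over all 10 libraries none of the marker genes was called by edgeR or DESeq2, and at an unadjusted p under 0.05 with the fold 2 proximal tubule genes were higher and 5 macrophage, 4 T and NK cell and 1 mesothelial genes were lower. At that threshold 315 of 16505 genes were higher and 678 lower. Limma voom with sample weights, which called 4 of the 10 matrix genes over these libraries, called 6 of 10 proximal tubule and 5 of 8 distal genes higher, and 6 of 10 macrophage, 4 of 8 T and NK cell, 3 of 13 fibroblast, 1 injured tubule and 1 mesothelial genes lower. Of 16505 genes it called 729 higher and 993 lower. Without DMM4 the 8 gave 4 fibroblast, 7 macrophage and 3 T and NK cell genes and 1 gene each of injured tubule, platelet and mesothelium lower, and 9 proximal tubule and 7 distal genes higher. Without DMM3 they gave 1 macrophage gene lower and 2 proximal tubule genes higher, against 186 of 16841 genes called higher. No fibroblast, distal or T and NK cell gene was called without DMM3, DMM5, PBS2, PBS4 or PBS5. Without DMM2 1 fibroblast and 4 T and NK cell genes were called lower. Without PBS5 1 proximal tubule gene was called higher, against 131 of 16918 genes. Over the 8 DESeq2 called 7 of 10 proximal tubule and 4 of 8 distal genes higher. It called 6 of 10 macrophage, 4 of 13 fibroblast and 3 of 8 T and NK cell genes lower. Of its 30116 genes it called 749 higher and 911 lower. These marker values stand beside the matrix results, and their part in the result was not tested.

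Genes around the 10 in the matrix were counted in the same fits, with calls by edgeR over the 8 libraries unless another set is named. Of all genes, 2.73% were called higher and 3.56% lower over the 8, and 7.61% lower with DMM4 also left out. The shares called lower without each other library are given above with the 10 matrix genes. Leaving 1 library out of the 8 gave 131 to 1129 genes called higher, the most without DMM4. At an unadjusted p under 0.05 with the fold, 315 of 16505 genes were higher and 678 lower over all 10 libraries. Over all 10 libraries edgeR called none of the listed genes; at an unadjusted p under 0.05 with the fold, 3 other glycoproteins and 1 receptor were higher, and 2 elastic fiber genes, 1 other proteoglycan, 1 receptor, 1 enzyme and 10 interferon genes were lower. DESeq2 called 2 other glycoproteins higher there, against 14 of 30751 genes, and no other listed gene. Limma voom with sample weights called 4 other glycoproteins, 5 elastic fiber genes, 4 other proteoglycans and 5 receptors lower there, against 6.02% of all genes. It also called 4 enzymes, 5 fibrillar collagens, 2 TGF-beta list genes and 10 interferon genes lower. Higher in that fit were 3 other glycoproteins, 2 receptors and 1 TGF-beta list gene, against 729 of 16505 genes. Without DMM1 edgeR called 10 interferon, 2 elastic fiber and 2 other proteoglycan genes, 1 receptor and 1 enzyme lower, and 3 other glycoproteins higher. In that fit 50 of 16760 genes were called higher and 436 lower. Of 33 other matrix glycoproteins tested, 3 were called higher and 3 lower, with a median log2 fold change of −0.33. The count of lower genes was 8 without DMM4, 5 by DESeq2, 6 with library size alone, 1 without PBS1 and 0 without DMM3, DMM5, PBS2, PBS4 or PBS5, where edgeR called 2 higher and, at an unadjusted p under 0.05 and the fold, 5 to 9 lower. The 3 higher were the fibrinogen chains, which form clots and provisional matrix: Fgb (1.66 ± 0.23, adjusted p = 0.00460), Fgg (2.02 ± 0.32, adjusted p = 0.00875) and Fga (1.80 ± 0.38, adjusted p = 0.0256). The 3 lower were Aebp1, which binds collagen (−0.78 ± 0.17, adjusted p = 0.0301), Srpx (−0.77 ± 0.16, adjusted p = 0.0247) and Cthrc1, made by activated fibroblasts (−3.12 ± 0.70, adjusted p = 0.0310). The most abundant per length, osteopontin (Spp1), Igfbp7 and Npnt, had log2 fold changes of 0.30, −0.38 and −0.02 and were not called. Fgb and Fgg were called with each of the 8 libraries left out in turn, Fga only without DMM4, Aebp1 and Srpx only without DMM2 or DMM4, and Cthrc1 only without PBS1 or DMM4; across these fits Fga was at 1.52 to 2.08, Aebp1 at −0.88 to −0.68, Srpx at −0.89 to −0.71 and Cthrc1 at −3.38 to −2.26.

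Of 24 elastic fiber and microfibril genes, which act beside Fbn1, none was called higher and 3 were called lower, with a median of −0.62: Fbln1 (−1.24 ± 0.22, adjusted p = 0.0127), Ltbp2 (−1.47 ± 0.31, adjusted p = 0.0249) and Fbln7 (−0.88 ± 0.19, adjusted p = 0.0301). DESeq2 called 9 lower, as did edgeR without DMM4, while edgeR called 2 without DMM3 or PBS1 and 1 without DMM5, PBS2, PBS4 or PBS5. Among the most abundant per length, Emilin1 (−0.58), Fbln5 (0.07) and Ltbp4 (−0.74) were not called, and Efemp2 was at −0.56 with an edgeR adjusted p of 0.0357 but a fold under 1.5. Fbln1 was called with each of the 8 left out; Ltbp2 lost its call without PBS2, PBS4, PBS5 or DMM5 (range over the 8 fits −1.82 to −1.25), and Fbln7 was called only without DMM2 or DMM4 (−1.05 to −0.76).

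Of 27 other proteoglycans, 1 was called higher and 3 lower, with a median of −0.39; 5 were lower without DMM4, and 1 was without DMM5 or PBS5. Sdc4, a heparan sulfate proteoglycan of the cell surface, was higher (0.60 ± 0.12, adjusted p = 0.0198). Sdc3 (−1.24 ± 0.15, adjusted p = 0.00220), the basement membrane proteoglycan agrin (Agrn, −0.71 ± 0.13, adjusted p = 0.0162) and Gpc1 (−0.64 ± 0.16, adjusted p = 0.0470) were lower. Gpc3 and Gpc4, abundant per length, were at 0.45 and 0.34 and not called. With each of the 8 libraries left out in turn, Sdc3 was called in all 8 fits, Agrn in all but those without PBS5 or DMM5 (−0.79 to −0.62), Gpc1 only without DMM4 (−0.74 to −0.52) and Sdc4 only without DMM2 (0.55 to 0.66). None of the 32 genes of glycosaminoglycan synthesis and hyaluronan was called by edgeR, with 2 lower at an unadjusted p under 0.05 and the fold, 1 called lower by DESeq2 and 4 called lower by edgeR without DMM4; their median was −0.02 (−0.23 without DMM4, −0.13 with library size alone, 0.03 without DMM3 and 0.04 without PBS4), and the most abundant per length, B3gat3, Chpf, Cd44 and Stab1, were at −0.06, −0.87, 0.07 and 0.23. Without DMM4 Cd44 was at −0.66 and Chpf at −0.60, both called lower; leaving out the other libraries gave Cd44 values up to 0.28 and no call.

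Of 24 receptors that bind one of the 10 proteins, 2 were called higher and 2 lower, with a median of 0.04. Without DMM4 9 were called lower and the median was −0.33. The median was also below 0 with library size alone (−0.12) and without PBS1 (−0.03) or PBS2 (−0.01). With the correction for gene length (−0.005) and the replicate block (−0.003) it lay just below 0. Without DMM3, DMM5 or PBS5 1 was called lower. Cd36, a thrombospondin-1 receptor that also takes up fatty acids, was higher (0.84 ± 0.14, adjusted p = 0.0112), as was Sdc4, counted also above. Itga5, the alpha chain of the fibronectin receptor, was lower (−0.86 ± 0.17, adjusted p = 0.0198), as was P2rx7 (−0.85 ± 0.14, adjusted p = 0.00955). Integrin chains Itgb1, Itgb5 and Itgav, the most abundant per length beside Sdc4, were at 0.00, −0.39 and 0.38 and not called. Cd36 and P2rx7 were called with each of the 8 libraries left out, and Itga5 was not without PBS5, DMM3 or DMM5 (−0.94 to −0.71). Of 14 enzymes and inhibitors that act on versican and the small proteoglycans, 3 were called lower and none higher, with a median of 0.00: Bmp1, which trims procollagens and probiglycan (−0.85 ± 0.15, adjusted p = 0.0139), Mmp2 (−1.45 ± 0.31, adjusted p = 0.0274) and Mmp14 (−0.81 ± 0.21, adjusted p = 0.0496). Without DMM4 4 were called lower and the median was −0.29; with library size alone the median was −0.12. EdgeR called none without DMM5, with 3 lower at an unadjusted p under 0.05 and the fold; 2 were called without DMM2, and 1 was without DMM3, PBS1, PBS2, PBS4 or PBS5. Adamts1, Timp3 and Htra1, abundant per length, were at 0.03, 0.39 and −0.04 and not called. Bmp1 lost its call without DMM5 (range −0.95 to −0.77), while Mmp2 was called only without DMM2 or DMM4 (−1.74 to −1.23) and Mmp14 only without DMM4 (−1.01 to −0.67).

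Of 9 fibrillar collagens, whose fibers bind decorin, biglycan, lumican and fibronectin, 4 were called lower and none higher, with a median of −1.01: Col5a2 (−1.17 ± 0.20, adjusted p = 0.0110), Col1a2 (−1.11 ± 0.22, adjusted p = 0.0207), Col11a1 (−1.18 ± 0.26, adjusted p = 0.0287) and Col5a1 (−0.96 ± 0.22, adjusted p = 0.0316). Col1a1 (−1.07) and Col3a1 (−1.01), the most abundant per length, were not called by edgeR over the 8. With 1 library left out in turn edgeR called both only without DMM4 (−1.35 and −1.34), and DESeq2 called both over the 8, as did the correction for gene length. The count was 7 without DMM4, 6 by DESeq2, 2 without DMM2, and 1 without DMM3, DMM5, PBS2, PBS4 or PBS5. Col5a2 was called with each of the 8 left out; Col1a2 was called only without PBS1, DMM2 or DMM4 (−1.25 to −0.95), and Col11a1 (−1.37 to −1.06) and Col5a1 (−1.10 to −0.80) only without PBS1 or DMM4. Of 10 TGF-beta family ligands and genes set beside them, 1 was called lower and none higher, with a median of −0.44. Those called lower were 4 without DMM4, 3 with library size alone, 2 without DMM2, and none without DMM3, DMM5, PBS2, PBS4 or PBS5. DESeq2, the correction for gene length and the fits without DMM4 or PBS4 each called 1 higher. Tgfb3 was the gene called lower (−0.82 ± 0.17, edgeR adjusted p = 0.0217). Tgfb1 was at −0.54 with an edgeR adjusted p of 0.0483 but a fold under 1.5. Fstl1, a secreted glycoprotein, and Lrrc32, which holds latent TGF-beta on cells, were at −0.51 and −0.35 and not called. With 1 library left out in turn, Fstl1 was called only without DMM4 (−0.84), Tgfb1 only without DMM2 (−0.65), and Tgfb3 only without PBS1, DMM2 or DMM4 (−0.91 to −0.72 over the 8 left-out fits). Tgfb1 was also called with library size alone. All 10 interferon genes of the check were called lower, with a median of −3.44; Ifit3, Isg15, Irf7 and Ifit1, the most abundant per length, were at −3.68, −4.10, −3.61 and −3.77, and Oasl1, Ifit2, Usp18 and Mx1 at −3.46, −2.82, −3.41 and −3.31.

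Promoter sequence was available from RefSeq (GRCm38.p6) for 6 of the 10 genes, Tnc, Postn, Sparc, Vcan, Bgn and Fbn1, and was searched on both strands over the 250 bases before each RefSeq start. These starts can differ from the gene ends given above: the windows of Sparc (chr11:55420081-55420330) and Fbn1 (chr2:125506439-125506688) lie inside the genes as deposited. Tnc and Postn have 2 starts each, and for Postn TATAAA is in 1 of the 2 windows. TATAAA was found for Tnc and Postn and in 12.4% of 32851 promoters, CCAAT for Vcan and in 33.8%, and GGGCGG for Tnc, Vcan, Bgn and Fbn1 and in 32.7%. TGACTCA (4.46% of promoters), GGAATG (12.6%) and GTCTAGAC (0.167%) were found for none of the 6. The last 80 bases before a RefSeq start, for Postn the one with TATAAA, are shown for Postn and Bgn, the genes whose groups did not overlap over the 8 libraries, and for Vcan, which differed most from them in DMM4, each read 5′ to 3′ on the gene's own strand. Capitals mark TATAAA in Postn and CCGCCC, the other strand of GGGCGG, in Bgn and Vcan; in Bgn the last copies overlap. The windows are chr3:54361027-54361106 (plus strand) for Postn, chrX:73483521-73483600 (plus strand) for Bgn and chr13:89742513-89742592 (minus strand) for Vcan. A match describes the letters in the window and marks no tested binding site.
Postn: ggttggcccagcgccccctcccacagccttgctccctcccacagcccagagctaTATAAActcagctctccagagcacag
Bgn: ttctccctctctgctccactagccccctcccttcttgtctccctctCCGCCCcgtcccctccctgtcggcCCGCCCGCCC
Vcan: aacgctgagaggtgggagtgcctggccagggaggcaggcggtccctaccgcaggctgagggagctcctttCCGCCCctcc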

How the data were processed

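Whole obstructed kidneys from 5 PBS-treated and 5 DMM-treated mice were measured by RNA sequencing, 1 library per mouse. The counts per gene were deposited by the authors as raw reads per gene, from reads aligned to mm10 with HISAT2 2.0.5; the counting tool and strand setting were not stated. The signal columns deposited by the authors are group means of normalized counts and were used only to find which libraries enter them. The gene length deposited by the authors, in base pairs, gave levels per kb. The 10 per-sample FPKM columns were not used, and neither were the authors' comparison columns, which hold fold changes and p-values.

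Genes passing filterByExpr were fitted with the edgeR 4.0.16 quasi-likelihood F test (TMM scaling, R 4.3.3) and p-values were Benjamini-Hochberg adjusted over all tested genes; a call required an adjusted p under 0.05 and a fold above 1.5. Alternatives were DESeq2 1.42.0, limma 3.58.1 voom with sample weights, other scaling and filters, protein-coding genes alone, a replicate block, fits without 1 of the libraries, and 2 choices made after seeing the data: a lowess correction for gene length, and correlations without DMM4. The fits were tested on simulated data. Single genes were also compared by an exact permutation test, two-sided, of mean log2 CPM (prior count 2). Correlations used 100000 permutations in numpy 2.4.6, with Python 3.11.15, scipy 1.17.1 and pandas 2.3.3.

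The 10 genes and all lists were chosen with earlier results of these data known. Named were all 10 genes, up to 4 genes of each list, those most abundant per length, up to 6 called genes of each list, the most abundant gene of each marker list, and the 5 genes most alike to the mean of the 10. Promoter sequences came from RefSeq (GRCm38.p6), with 6 of 10 genes matched.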

Additional observations from a re-analysis of the deposited data

Results flagged for a closer look

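Among the 20 sets of 5 libraries tested, 1 for each of the 10 genes in each group, 2 held a library far from the rest. Postn was at 159.0 CPM in DMM1, and its gap to the nearest other DMM library took 0.816 of the group's whole range. Dcn was at 497.8 CPM in PBS4, where the gap took 0.764 of the PBS range. Chance alone marks about 1 in 20 such sets.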

How the results depend on the processing

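Of 329 member fold changes recomputed, 276 had the direction and side of the threshold reported, 16 passed the threshold where the reported value did not, 15 no longer passed it and 22 changed sign; of 185 counts and medians, 142 were close to the reported value. Of 30 exact tests 28 were on the side reported, and Postn and Bgn passed over the 8. DESeq2 gave no p for Vcan over the 8. The cause was not tested.

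Over all 10 libraries, leaving out 1 library gave 0 to 50 genes called higher, 0 to 436 lower and 0 to 1 of the 10 matrix genes lower, the highest values each without DMM1. DESeq2 called 14 genes higher and 36 lower, limma voom with sample weights 729 and 993 with 4 of the 10, an unadjusted p under 0.05 with the fold 315 and 678, and the 8 libraries 452 and 590 with 3 of the 10. Thbs1 ran from −0.21 to 0.045, Vcan from −0.52 to 0.26 and Fbn1 from −0.32 to 0.24 with 1 library left out, the lowest each without DMM4. Vcan was −1.08 by limma voom, −0.11 with library size alone, −0.011 with no filter on low counts, −0.34 with the replicate block, −0.28 with the correction for gene length and −0.31 over the 8. Fbn1 was −0.53 by limma voom, −0.045 with library size alone, −0.062 with the replicate block, −0.15 with the correction for gene length and −0.11 over the 8.

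Over the 8, leaving out 1 library gave 131 to 1129 genes higher, 276 to 1281 lower and 1 to 8 of the 10 lower, the highest without DMM4 and the lowest gene counts without PBS5; Fbn1 ran from −0.75 to 0.091. DESeq2 called 749 and 911 with 4 of the 10, an unadjusted p with the fold 1067 and 1198, and library size alone 276 and 700 with 3 of the 10. The correction for gene length, chosen after seeing the data, called 5 of the 10. The replicate block, which pairs libraries by a shared number alone, called 0 higher, 0 lower and 0 of the 10 by edgeR, with 790 and 1021 genes at an unadjusted p under 0.05 with the fold. Without DMM4, also chosen after seeing the data, the median r between the 10 genes was 0.856.

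Lum, with as few as 124 counts in a library, is the least precisely counted of the 10.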
